A study of Nematostella vectensis with 136 samples.

Results

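The 71 genes described here were those whose RNA peaked late in the first day of sampling in adult *Nematostella vectensis*, the starlet sea anemone, kept under a daily light cycle. They were chosen from 24384 gene models by their own values in those libraries. Counts were divided by the library total and multiplied by 1000000 (CPM), and L = log2(CPM + 2) was taken. Of 8603 genes with a mean of at least 10 CPM, 8381 also had a mean L over the first 6 time points that differed by less than 0.6 between light:dark and dark:dark animals. The mean CPM was taken over the 133 kept libraries, of both arms and all time points, so later libraries also entered the choice. A cosine and a sine of 24 h were fitted to L in the 24 light:dark libraries of those time points, and the 200 genes of highest F were taken. The 71 members have a fitted peak from 12 to under 24 h after the first time point, and the other 129 peaked earlier in the day.

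For 1 month adult animals had lived either under alternating light and dark (LD) or without any light (DD). Whole animals of both arms were then collected at 17 time points, T1 to T17, spaced by 4 h and so covering 0 to 64 h, with 4 replicates, A to D, at each. LD animals kept their light cycle from T1 to T6, and the cycle was removed for T7 to T17, while DD animals stayed in darkness throughout, and arm and time define the 34 groups. The labels of the DD libraries of T1 to T6 carry a prefix that no other library has, so on the first day arm and whatever the prefix marks cannot be told apart. The sources used here do not say at which clock time T1 was taken, nor when the lights were on, nor whether the 4 replicates were separate animals or pools, so a p-value below measures no more than the spread between libraries.

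Many animals, cnidarians among them, show daily rhythms of gene expression that are set by the light cycle. Such a rhythm can be driven by an internal clock built on transcription factors such as CLOCK and its partners, or by light acting directly, and sampling after the light cycle is removed is the usual way to look at rhythms without light. In *N. vectensis* light-dependent daily expression is known for clock gene homologues and cryptochromes, which are relatives of light-sensing DNA repair enzymes. The deposited table names genes by NVE identifiers alone, and 0 of them matched the RefSeq gene table used here (assembly jaNemVect1.1). No member can therefore be given a name, a role or a sequence.

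The libraries were shallow. Of 136 libraries, 3 with under 179339 counts were left out of CPM values, and the remaining 133 held 207665 to 749294 counts. The median over all 136 was 538017 counts, at which 1 read is worth 1.86 CPM. Libraries of T1 to T12 carry lane 5 in their labels and those of T13 to T17 lane 7, in both arms, so level changes between these periods cannot be told apart from the lane. Some libraries stood apart. A score was taken as the mean L of the 50 genes most correlated with NVE12125, members left out, and 19 libraries lay above its midpoint of 4.77, of which 16 were LD. A second score, from the 25 genes most correlated with NVE12898, was above its midpoint in 17 libraries, of which 11 were LD. Whole-animal RNA was measured, so fewer cells of a type and less RNA per cell cannot be told apart for any gene below.

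NVE8107 and NVE4116 had the highest F of all members, 82.2 and 36.7, and were the only members with a fitted amplitude (mean to peak) above 1 on the log2 scale. Because these LD libraries chose the members, their first-day values are a description. For NVE8107, levels in replicates A to D at T2 in LD were 1.45, 1.66, 8.41 and 5.19 CPM. They were 41.9, 23.1, 41.6 and 38.0 CPM at T4. At T5 they were 99.3, 78.8, 47.1 and 64.4 CPM. Every T5 library was thus far above every T2 library, and the fitted peak lay at 15.9 h with an amplitude of 1.95. For NVE4116, levels at T3 in LD were 3.79, 3.24, 1.55 and 3.40 CPM, against 58.1, 38.3, 28.6 and 39.1 CPM at T5. At T6 they were 39.6, 30.3, 44.4 and 39.7 CPM. NVE4116 was high later than NVE8107 in these libraries: at T4, when NVE8107 was already at 23.1 CPM or more, it was at 8.37, 9.62, 11.0 and 0 CPM. At T1 it was at 16.1, 30.5, 39.5 and 38.3 CPM, and its fitted peak was at 19.9 h with an amplitude of 1.72.

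**Figure D1:**
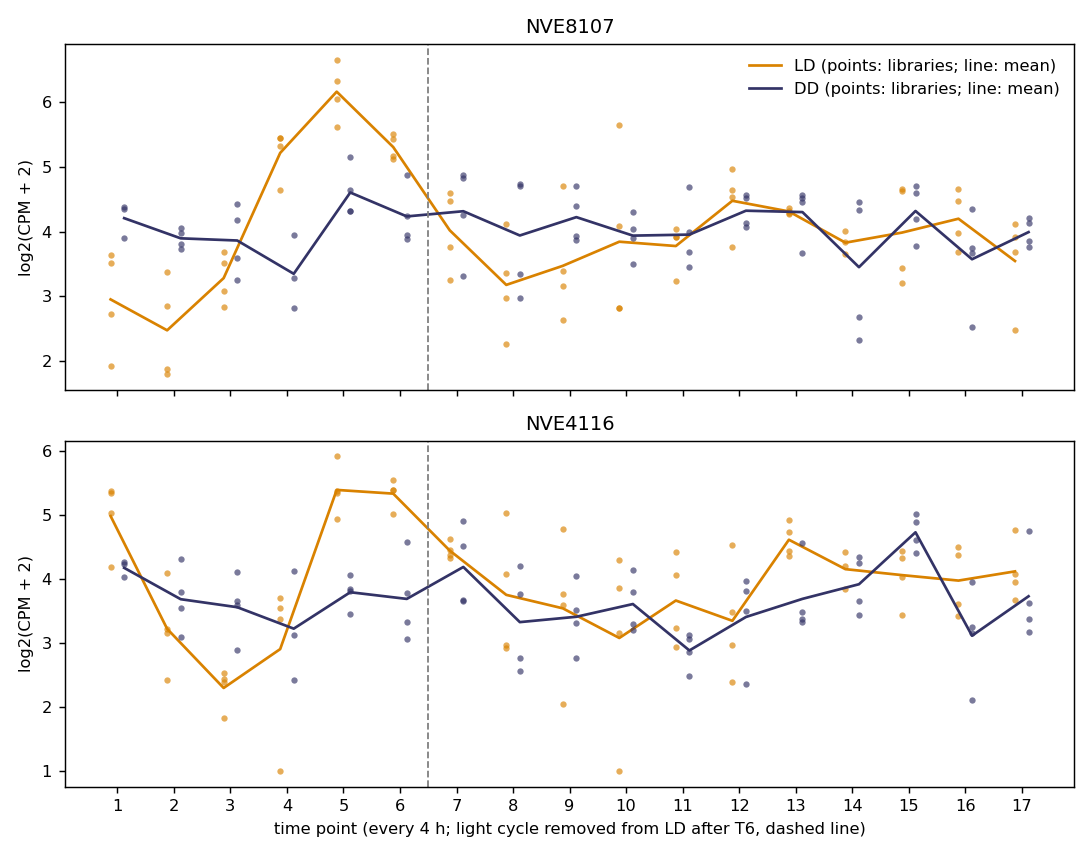
Level of NVE8107 and NVE4116 as log2(CPM + 2) in each kept library, against time point, in LD (orange) and DD (blue); points are libraries and lines are group means. In LD both genes span a wide range before the dashed line (T1 to T6), NVE8107 from 1.45 to 99.3 CPM, and a narrower one after it. The LD values before the line are those that chose both genes.

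In DD animals the same genes varied less on the first day. They were chosen for their LD values on that day, so a wider LD range is in part set by the choice. NVE8107 in DD was at 13.8, 11.3, 14.6 and 12.0 CPM at T2 and at 23.0, 17.9, 33.5 and 17.9 CPM at T5. The T5 libraries were all above the T2 libraries here too, by 0.71 in mean L against 3.70 in LD. For each edgeR estimate below, the ± is an SE worked back from the F of its test. A fitted amplitude is positive even without a rhythm, so its SE does not give a distance from none. The fitted 24 h component of NVE8107 over DD T1 to T6 had an amplitude of 0.41 ± 0.19 (SE, log2) with a peak at 20.6 h, and did not pass the test (edgeR quasi-likelihood test, Benjamini-Hochberg adjusted p = 1 over 10257 genes). NVE4116 in DD was at 10.6, 9.99, 15.1 and 5.40 CPM at T3 and at 12.4, 8.96, 14.7 and 11.9 CPM at T5, and these overlap. Its DD amplitude was 0.33 ± 0.22 (edgeR adjusted p = 1).

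After removal of the light cycle neither gene kept a 24 h component past the threshold. NVE8107 in LD was at 8.24, 15.3, 5.84 and 2.78 CPM at T8, 24 h after T2, and at 7.37, 13.1, 14.5 and 13.1 CPM at T11, 24 h after T5. The groups overlapped. At T17, 48 h after T5, it was at 15.3, 3.58, 13.0 and 10.8 CPM. Its amplitude over LD T7 to T17 was 0.23 ± 0.15 (edgeR adjusted p = 0.568), against 0.17 ± 0.14 over the same DD time points (adjusted p = 0.872). NVE4116 in LD was at 10.0, 25.3, 11.5 and 2.11 CPM at T9 and at 7.37, 14.7, 19.4 and 5.61 CPM at T11. These overlapped as well, and its amplitude was 0.23 ± 0.14 in LD (edgeR adjusted p = 0.554) and 0.35 ± 0.16 in DD (adjusted p = 0.607) over T7 to T17. The DD libraries of T15 were at 27.7, 30.1, 19.0 and 22.3 CPM for NVE4116, above the 13.4, 2.29, 6.86 and 7.51 CPM of T16. No DD group of the first day had all its libraries that high, and this pair of time points was picked after the values were seen.

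The other members had smaller amplitudes, from 0.20 to 0.95, and the median over all 71 was 0.46. The F of the member ranked just below the markers, NVE3893, was 19.6. Mean levels ran from 10.0 to 4365 CPM with a median of 31.1 CPM, against 27.2 CPM for all 8603 expressed genes. Under 20 CPM lay 26 members, NVE8107 and NVE4116 among them, and 10 were above 100 CPM. Fitted peaks fell at 12 to under 16 h in 9 members, at 16 to under 20 h in 31 and at 20 to under 24 h in 31, with median amplitudes of 0.44, 0.48 and 0.46. The first of these groups had the highest median level, 112 CPM, against 26.9 and 32.2 CPM. In the measured means, which are those of the libraries that chose the members, the highest LD group of the first day was T6 in 33 members, T5 in 23 and T4 in 2. It was T1 in 12 members and T2 in 1; on the fitted cosine T1 adjoins the end of the day. The lowest was T4 in 29, T3 in 23, T2 in 11 and T1 in 8.

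Among the members peaking at 12 to under 16 h, NVE3893 changed little but steadily. Its LD levels were 101.8, 122.2, 128.0 and 111.5 CPM at T1 and 165.4, 192.3, 195.1 and 197.5 CPM at T4, with no overlap, and its amplitude was 0.29 with a peak at 12.9 h. NVE5432 was at 159.6 to 232.3 CPM at T1 and all 4 of its T5 libraries were above these, the highest at 441.5 CPM, with an amplitude of 0.40. Its mean L at T5 was above that at T1 by 0.90 in LD and by 0.84 in DD, where the libraries overlapped. In NVE8116, with an amplitude of 0.46, the 4 libraries at T1 (13.9 to 42.7 CPM) lay below those at T5 (44.7 to 70.7 CPM). At the same time points in DD the difference in mean L was -0.11 for NVE3893 and 0.045 for NVE8116.

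In the group peaking at 16 to under 20 h, NVE21802 was the most abundant member. It was at 3220, 2390, 2730 and 3050 CPM at T3 in LD and at 6050, 4560, 3700 and 4580 CPM at T5. Its T5 libraries were all above its T3 libraries, with an amplitude of 0.31. NVE13079 was at 26.5 to 39.1 CPM at T3 and at 44.6 to 75.5 CPM at T6. NVE18373 was at 3.79 to 14.6 CPM at T3 and at 25.7 to 35.7 CPM at T6, but at T5 replicate A had 65.4 CPM and the other 3 libraries 13.5 to 18.4 CPM.

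Among the 31 members peaking at 20 to under 24 h, NVE21755 had the highest F, 18.2. It was at 47.4, 68.0, 60.6 and 37.4 CPM at T3 and at 139.4, 89.2, 121.5 and 105.2 CPM at T6, without overlap, and the amplitude was 0.53. NVE15272 was at 10.2 to 19.4 CPM at T3 and at 20.5 to 48.8 CPM at T1. NVE20470 was at 28.9 to 39.5 CPM at T4 and at 47.3 to 74.3 CPM at T1. In these 3 genes the lowest and the highest group did not overlap. In NVE743 they did, at 37.7, 53.9, 68.0 and 41.7 CPM at T4 and 60.7, 88.6, 96.4 and 87.1 CPM at T1.

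**Figure D2:**
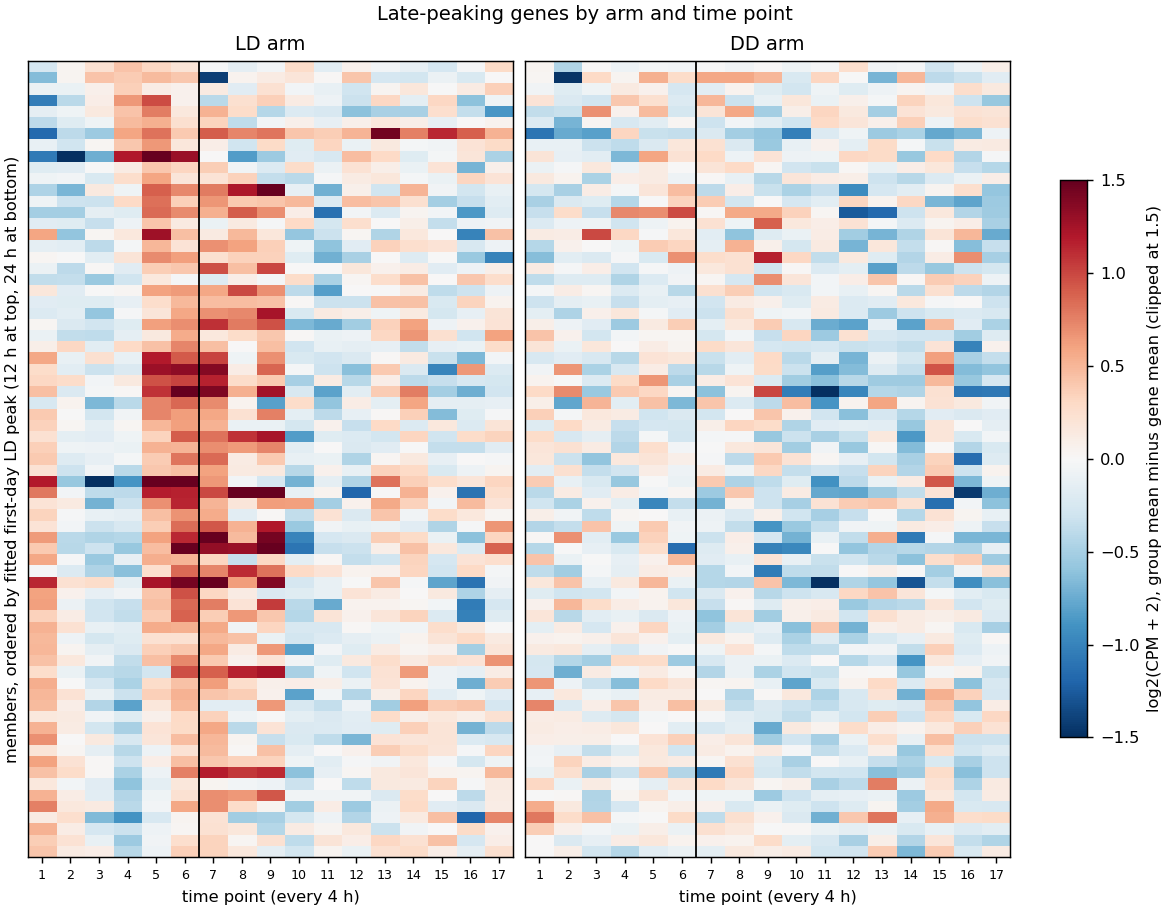
Group mean of log2(CPM + 2) minus the mean of each gene over its 34 group means, for the 71 members (rows, ordered by fitted LD peak) at T1 to T17 in LD (left) and DD (right). The black line marks the end of T6. High values at T5 and T6 in LD follow from the rule. In many LD rows high values also run through T7 to T9 and end at T10, and no such block is seen in DD.

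The edges of the rule were narrow. The lowest F inside was 6.003 (NVE14399) and the highest F of a late-peaking gene outside was 5.995 (NVE22561). NVE14399 also had the lowest mean level, 10.01 CPM, and NVE250 stayed outside at 9.89 CPM. By peak time, NVE3893 at 12.9 h and NVE20470 at 23.8 h were inside, while NVE13354 at 11.99 h and NVE5768 at 0.01 h were outside. By level, NVE18373 was inside with LD above DD by 0.57 (log2) and NVE10523 outside at 0.78. The membership rested on the replicates: without replicate A, B, C or D the rule found 70, 88, 87 and 83 genes, and shared 32, 31, 31 and 25 of them with the 71. NVE8107 and NVE4116 were found in each of these 4 repeats.

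Each member was then read at 2 time points, those of its own highest and lowest first-day LD mean, in every arm and cycle. On the first LD day the difference between them had a median of 1.00 in L, and all libraries of the high group were above all of the low group in 52 of 71 members, or 73.2%, against 19.1% of all 8381 genes. Choosing the time points on these values sets this difference. At the same time points in DD the median difference was 0.05, and 5 members (7.04%) had the groups apart in that direction, against a background of 4.58%. These were NVE8107, NVE5490, NVE24092, NVE23766 and NVE1757, with differences of 0.47 to 1.31. One cycle later, at T7 to T12, the median was 0.01 in both arms. The groups were then apart in 2 members in LD (NVE743 and NVE5490; 2.82%, background 2.58%) and in 3 in DD (NVE21755, NVE8116 and NVE13217; 4.23%, background 2.12%). These shares were near the background, and the genes are named after their values were seen.

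The 24 h component was then tested with edgeR across all genes. Over DD T1 to T6, 0 of 71 members passed, with a background of 0.0% (0 of 10257 genes), and DESeq2 also called 0 members. At an unadjusted p under 0.05 there were 7 members, or 9.86%, against 4.14% of all genes. The median DD amplitude was 0.20 in members and 0.20 in all tested genes. Its standard error in members had a median of 0.17 (0.08 to 0.42). A component as small as the median first-day LD amplitude of 0.46 could thus be missed, and 0 calls do not show that none is there. That 0.46 was fitted to L in libraries that chose the members, while the DD values are edgeR estimates, so the scales differ. Over DD T7 to T17, 0 members passed against a background of 0.0682% (7 genes), with 12 members (16.9%; 9.39% of all genes) at an unadjusted p under 0.05. DESeq2 called 1 member, NVE3012. The shares of all genes called by DESeq2 are not given.

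After removal in LD, 13 of 71 members had a 24 h component past the threshold over T7 to T17, against a background of 8.75%. None of the 13 peaked late: their fitted peaks lay between 0.92 and 4.76 h on the 24 h scale of T1, with amplitudes of 0.24 to 1.08. Of all 71 members, 16 had a fitted late peak, against 49.5% of all tested genes. NVE4118, with a first-day amplitude of 0.95, had the largest amplitude, 1.08 ± 0.25 with a peak at 4.6 h (edgeR adjusted p = 0.0077). NVE26027 followed with 0.97 ± 0.23 (adjusted p = 0.0101), then NVE18453 with 0.81 ± 0.24 (adjusted p = 0.0466) and NVE5879 with 0.78 ± 0.13 (adjusted p = 0.000551). The count of 13 was 0, 6 and 7 without replicates A, B and D, 0 without the libraries of high NVE12125 score, and 25 by DESeq2. With T7 to T12 alone, which lie on 1 lane, it was 19. The shares of all genes called in these settings are not given, so a shift in members alone cannot be told from a shift in all genes.

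Many of the members fell within the first cycle after removal in LD. The later 12 h of that cycle (T10 to T12) were compared with the earlier 12 h (T7 to T9). In LD, 30 of 71 members passed the test against a background of 19.7% of genes. Of these, 29 fell (background 13.8%) and 1, NVE8107, rose (background 5.94%). The median difference was -0.39 in members and -0.03 in all tested genes, and 59 members had a negative difference. Of the 129 early-peaking genes tested in the same way, 26 rose and 2 fell, with a median of 0.23. Scaling moved these levels: with RLE library factors in place of TMM the median of all genes was -0.28 and that of members -0.66, so the distance between them was nearly the same, and 43 members fell and 0 rose. Of all genes called, 69.9% fell under TMM and 94.1% under RLE, and the share of all tested genes called under RLE is not given.

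By peak time on the first day, 1 of 9 members peaking at 12 to under 16 h passed, with a median difference of 0.01. Of those peaking at 16 to under 20 h, 17 of 31 passed, with a median of -0.69, and of those at 20 to under 24 h 12 of 31, with a median of -0.39. NVE743, for example, was at 61.9, 97.2, 148.2 and 62.3 CPM at T7 and at 42.8, 20.7, 22.8 and 49.9 CPM at T10 in LD. The T10 libraries were all below the T7 libraries, and the difference between the later and the earlier 12 h was -0.74 ± 0.15 (edgeR adjusted p = 3.77e-05). These time points were picked after the values were seen. The whole 12 h periods overlapped, at 41.7 to 148.2 CPM for T7 to T9 and 20.7 to 62.2 CPM for T10 to T12. NVE26027 was at 77.5, 52.1, 9.73 and 13.9 CPM at T8 and at 0, 3.24, 4.89 and 3.87 CPM at T12, a pair picked in the same way. It fell by 2.29 ± 0.44 between the 12 h periods (edgeR adjusted p = 1.73e-05). Those periods overlapped, at 0 to 80.1 CPM for T7 to T9 and 0 to 25.8 CPM for T10 to T12. NVE8107 averaged 11.4 ± 7.27 CPM (SD, n = 12) at T7 to T9 and 17.2 ± 12.2 CPM (SD, n = 12) at T10 to T12. Replicate B of T10 alone was at 48.3 CPM. Its rise of 0.72 ± 0.27 (edgeR adjusted p = 0.0485) missed the threshold in 10 of 12 alternatives, with adjusted p from 0.0169 to 0.919.

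**Figure D3:**
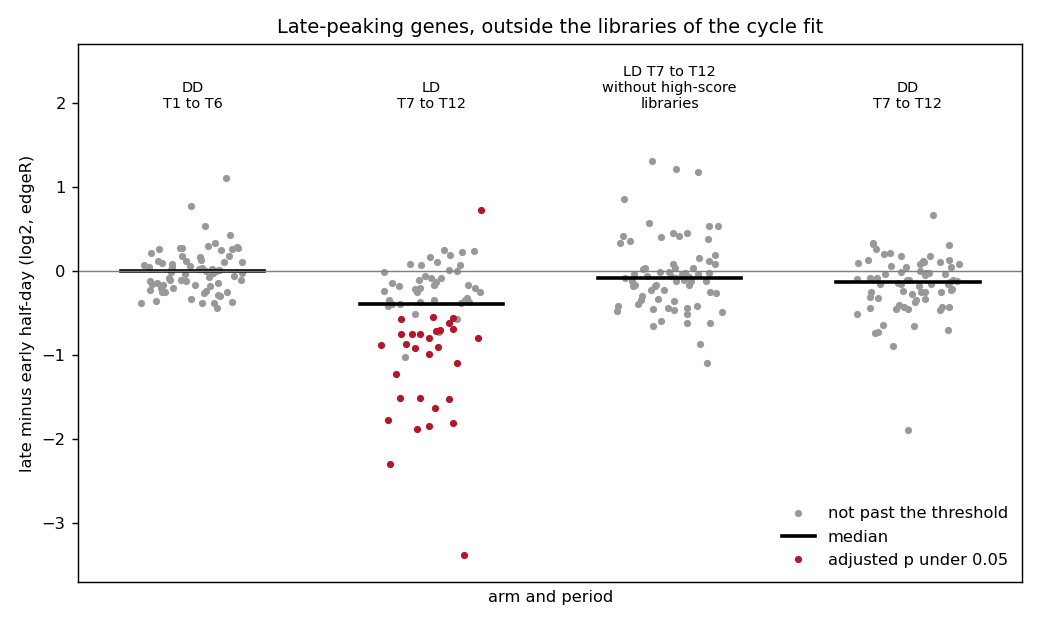
Difference of the later minus the earlier 12 h (log2, edgeR estimate) for each of the 71 members (points; red, adjusted p under 0.05) in DD T1 to T6, LD T7 to T12, LD T7 to T12 without the libraries of high NVE12125 score, and DD T7 to T12; bars are medians. The medians are 0.00, -0.39, -0.08 and -0.13, and red points appear in LD T7 to T12 with all libraries.

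In DD the same contrast called none of the members. Over T1 to T6 edgeR called 0 of 71 against a background of 0.0%, with 2 members (2.82%; 3.62% of all genes) at an unadjusted p under 0.05 and 0 by DESeq2, and the median was 0.00 against -0.01 in all genes. Over T7 to T12 it called 0 against a background of 0.00975% (1 gene), with 12 members (16.9%; 8.9% of all genes) at an unadjusted p under 0.05 and 0 by DESeq2. There 50 of 71 members had a negative difference, against 48.4% of all genes. The median was -0.13, against 0.01 in all genes. The arms were also compared directly. The difference between LD and DD in this contrast passed in 10 members, all lower in LD, against a background of 5.5% of genes in either direction and 5.17% lower. No early-peaking gene of the 129 passed. The count of 10 became 0, 3 and 6 without replicates A, C and D. For these settings and for DESeq2 the shares of all genes are not given.

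NVE4118 differed most between arms, and its higher LD values had helped it past the limit of 10 CPM. Its LD levels at T7 to T9 were 7.51, 4.94, 129.5 and 109.5 CPM at T7, 210.99, 113.4, 5.84 and 2.78 CPM at T8, and 76.2, 16.9, 206.9 and 206.6 CPM at T9. They fell into a high and a low set at each of these time points, with 7 libraries at 76.2 CPM or more and 5 at 16.9 CPM or less. At T10 to T12 the LD mean was 7.59 ± 4.66 CPM (SD, n = 12), and in DD the means were 9.47 ± 6.06 CPM and 9.81 ± 9.29 CPM for the same periods. The LD fall was 3.37 ± 0.48 on the log2 scale (edgeR adjusted p = 5.46e-08). The difference of LD from DD in this contrast was -3.42 ± 0.80 (edgeR adjusted p = 0.00315). NVE9547 showed the same division, at 26.3, 19.8, 71.8 and 59.6 CPM at T7 and 112.1, 119.5, 13.6 and 25.05 CPM at T8 in LD. At T10 to T12 its LD libraries held 7.55 to 27.7 CPM. In DD it stayed at 6.30 to 38.8 CPM over T7 to T12, and its difference between arms was -1.80 ± 0.39 (edgeR adjusted p = 0.00141).

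The 7 high libraries of NVE4118 at LD T7 to T9 were the 7 of those 12 libraries whose NVE12125 score was above the midpoint. That score had a median of 7.28 (log2) at LD T7 to T9, from 1.25 to 8.43, and 0 of 12 libraries were above the midpoint at LD T10 to T12, where the median was 1.38. In DD at T7 to T12, 1 of 24 was above it. Without the high-score libraries edgeR called 0 members between the later and earlier 12 h of LD T7 to T12, against a background of 0.0% of 12062 genes, with a median of -0.08 in members and 0.05 in all genes. That left 5 of 12 libraries at T7 to T9. NVE4118 then had a difference of 0.04, and NVE8107 one of 1.31 that did not pass. Members were also read against the score over the 109 libraries outside the cycle fit. The correlation was above 0.5 in 14 members, or 19.7%, against 6.08% of expressed genes, and in 0 of the 129 early-peaking genes. All 14 fell in LD T7 to T12, with a median of -1.57, while of the other 57 members 15 fell, with a median of -0.32. These correlations use the same T7 to T12 libraries and are a description. NVE8107 and NVE4116 had correlations of 0.03 and 0.04 with the score. With the NVE12898 score, 7 members (9.86%) were above 0.5, against 1.59% of expressed genes.

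**Figure D4:**
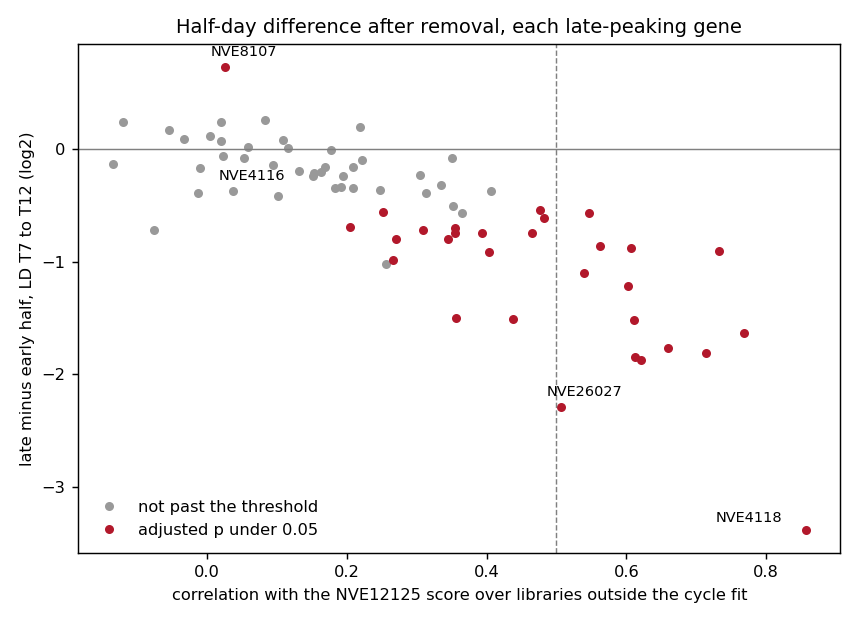
Difference of the later minus the earlier 12 h in LD T7 to T12 (vertical axis, log2) against the correlation with the NVE12125 score over 109 libraries (horizontal axis) for each of the 71 members; red points passed the test and the dashed line marks 0.5. All 14 members right of the line lie below 0, and NVE8107 and NVE4116 lie near a correlation of 0.

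The deviation of L from each gene's mean over the 34 groups was also averaged over the 71 members. Its LD values at T1 to T6 come from the libraries that chose the members, so the first-day rise was set by the rule. In LD this mean was -0.20 ± 0.07 (SD, n = 4) at T3 and 0.60 ± 0.24 at T6. It was 0.54 ± 0.39 at T7 and 0.29 ± 0.59 at T8, where the 4 libraries spread from -0.30 to 0.83. At T9 it was 0.43 ± 0.32, and at T10 it was -0.20 ± 0.18. In LD libraries outside the cycle fit, the group mean was thus above 0 at T7 to T9 and below 0 at T10 to T12. These libraries did count towards the mean of at least 10 CPM. Later it was 0.11, 0.17 and 0.08 at T13, T14 and T17, and -0.04 and -0.18 at T15 and T16. The spread between replicates was wider at T7 to T9 than at any first-day LD time point. In DD the group mean stayed between -0.09 and 0.10 over T1 to T6, in libraries that did not enter the cycle fit. On the first day in LD, 0 of 16 libraries of T1 to T4 and 3 of 8 of T5 and T6 were above the NVE12125 midpoint. The NVE12898 score was above its midpoint in 3 of 16 and 3 of 8 of them. When the rule was run without the high NVE12125 libraries it found 73 genes and shared 37 with the 71, and without the high NVE12898 libraries 76 and 28. The part of these scores in the first-day rise of the members was not tested, and NVE8107 and NVE4116 were members in both repeats.

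**Figure D5:**
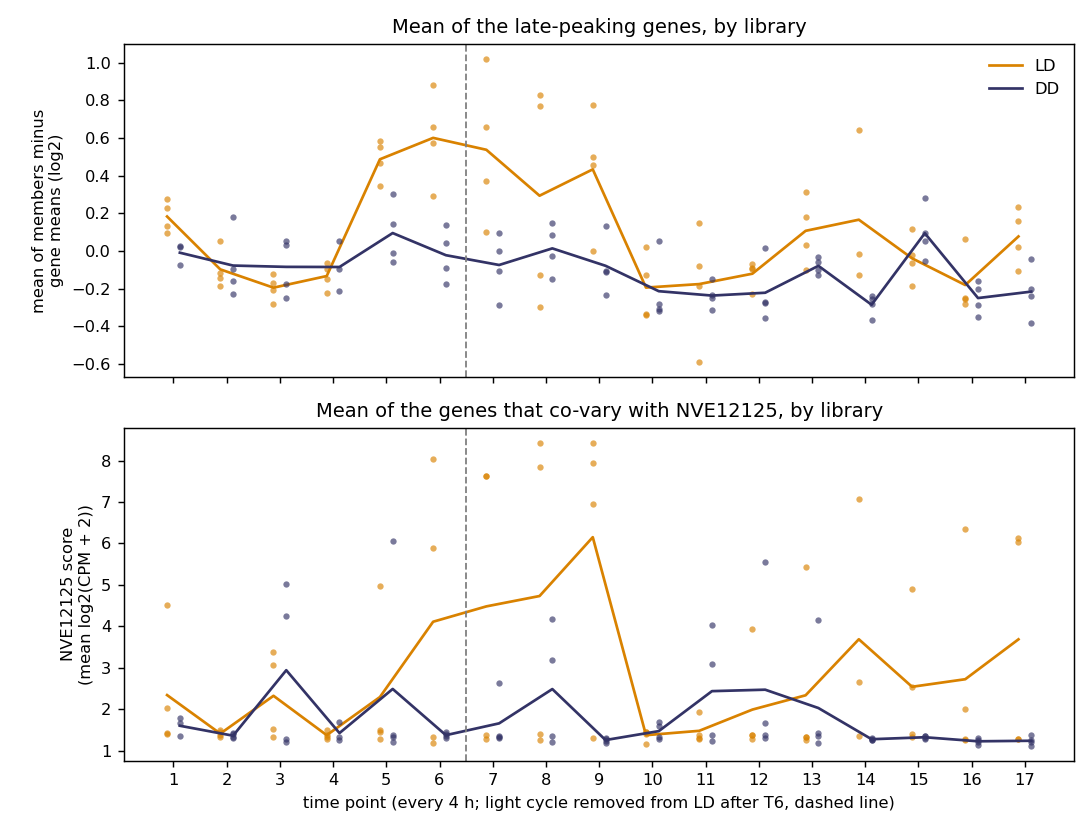
Upper panel: mean over the 71 members of log2(CPM + 2) minus each gene's mean, for each kept library against time point; lower panel: NVE12125 score of the same libraries (mean log2(CPM + 2) of 50 genes that are no members). Orange is LD, blue is DD, and lines are group means; LD libraries at T7 to T9 split widely in both panels.

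Members also co-varied more in LD after removal. After group means were taken out, the mean correlation over the 2485 pairs of members was 0.156 in the 43 LD libraries of T7 to T17, against 0.023 for expressed genes. It was 0.038 in the 66 DD libraries of T1 to T17 (0.026 for expressed genes), and 0.066 in the 30 LD libraries of T7 to T17 with a low NVE12125 score (0.030). Pairs within a library share its depth and its composition.

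Levels were compared between arms after removal as well, since the rule bounded the difference between arms on the first day alone. The limit of 10 CPM did use the later libraries. On that day, in the libraries that the rule used, 62 of 71 members were higher in LD, with a median of 0.16 in mean L. The share over all genes is not given for that day, so this is a description. Over T7 to T12, 10 members were higher in LD and 0 lower, with backgrounds of 3.36% higher, 0.731% lower and 4.09% in either direction. Differences of those 10 ran from 0.54 to 1.40 on the log2 scale. The median over members was 0.21, against 0.01 in all genes, and 57 of 71 were positive, against 52.4% of all genes. NVE4118 had the largest difference, 1.40 ± 0.40 (edgeR adjusted p = 0.0234), on LD values of 0 to 210.99 CPM. Its DD mean over T7 to T12 was 9.64 CPM, and its LD values helped it past the limit of 10 CPM. Its higher level in LD is therefore in part set by the choice. NVE7848 was higher by 1.12 ± 0.27 (edgeR adjusted p = 0.00707), on a median of 29.7 CPM in LD (11.2 to 179.2) and of 17.0 CPM in DD (1.81 to 100.1). The arms overlapped for both. Without the libraries of high NVE12125 score 0 members passed, and without replicate C or D 1 did. Shares over all genes are not given for these settings, and fewer libraries entered each fit.

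At T13 to T17, 48 to 64 h after T1, 2 members passed, against a background of 2.1% of genes: 1 was higher in LD (background 1.58%) and 1 lower (0.517%). NVE2343 had a median of 184.3 CPM in LD (52.2 to 482.1) and 54.5 CPM in DD (19.0 to 164.2), a difference of 1.40 ± 0.29 (edgeR adjusted p = 0.00258). Over T7 to T12 its difference was 0.79 ± 0.26 (edgeR adjusted p = 0.0603). In DD replicate A of NVE2343 was the highest library at 13 of 17 time points, for example at 315.1 CPM at T7 against 21.1 to 67.5 CPM in the other 3. In LD replicate C was the highest at 8 of 17. The difference at T13 to T17 was 1.78 without replicate A, 0.87 and no longer past the threshold without replicate C, and 1.40 and past it with a replicate block. NVE5432 had the opposite sign, -0.64 ± 0.18 (edgeR adjusted p = 0.0378), with medians of 163.3 CPM in LD and 239.3 CPM in DD. This call missed the threshold in 9 of 12 alternatives. The count of 2 was 1, 1, 0 and 1 without replicates A, B, C and D, and the shares of all genes are not given for these settings.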

How the data were processed

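The authors deposited 1 table of raw read counts per gene for 136 libraries of whole-animal RNA. Reads were aligned with Bowtie2, per the submitters' processing notes, to a genome that the labels credit to Putnam et al. The sources used here give neither its version nor the counting tool nor a strand setting. From these counts CPM and L were computed as given above, with a pseudocount of 2, so that a fold change of a low gene is understated. The 3 shallow libraries were left out of CPM values and stayed in the tests.

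The tests used edgeR 4.0.16 (R 4.3.3): TMM factors, filterByExpr (10257 genes), glmQLFit and glmQLFTest on 34 group means over all 136 libraries, with 102 residual degrees of freedom, and Benjamini-Hochberg adjustment over all tested genes at 0.05. Contrasts of group means gave the 24 h component, the later minus the earlier 12 h, and the level of LD minus DD. The rule, the 24 h contrast and the 12 h contrast were tested on simulated data. Alternatives were DESeq2, RLE factors, no filter, shallow libraries left out, each replicate left out, a replicate block, a newer edgeR fit, and libraries of high NVE12125 or NVE12898 score left out. The members, the lists and the tests were chosen with earlier results of these data known. Named genes were the 2 markers, the 4 of highest F in each 4 h of peak time, the called members of largest change in each test, and the genes at each bound of the rule.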

Additional observations from a re-analysis of the deposited data

Results flagged for a closer look

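In 10 members the difference between the later and the earlier 12 h of T7 to T12 differed between LD and DD in a direct test (edgeR interaction contrast, adjusted p under 0.05). The LD minus DD difference was -3.42 in NVE4118, -1.80 in NVE9547, -1.71 in NVE11284, -1.61 in NVE23360 and -1.55 in NVE24153 (log2). It was -1.32 in NVE24782, -1.15 in NVE5879, -0.99 in NVE26180, -0.97 in NVE22263 and -0.92 in NVE724. None of them passed without the libraries of high NVE12125 score, a setting that left 5 of 12 libraries at LD T7 to T9.

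For NVE3893 in LD at T4, replicate A, at 165.4 CPM, lay apart from the other 3 libraries, at 192.3, 195.1 and 197.5 CPM. Its gap to the nearest was 0.84 of the whole range. Among 39 groups of 4 libraries tested for such a gap it was 1 that stood out, and chance gives about 1 in 20.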

How the results depend on the processing

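The number of members by the rule ranged from 70 to 88 when 1 replicate was left out, and was 61 to 90 under the other settings. NVE8107 and NVE4116 were members in each setting except a minimum of 20 CPM, which both are below. Without the libraries of high NVE12125 score the tests called 0 members in each comparison after removal: for the LD 24 h component (13 as reported), the LD later minus earlier 12 h (30), its difference from DD (10), and the levels at T7 to T12 (10) and T13 to T17 (2). In that setting the LD later minus earlier 12 h passed in 0 of all 12062 tested genes, with 5 of 12 libraries left at LD T7 to T9. Whether the 0 counts came from fewer libraries was not tested. For NVE4118 this setting turned the sign, to 0.037 for the LD later minus earlier 12 h, 0.27 for its difference from DD and -0.16 for the level at T7 to T12; fewer libraries entered this fit. The LD 24 h component passed in 25 members by DESeq2 and 30 with RLE factors. The DD 24 h component at T7 to T17 passed in 1 by DESeq2. Levels at T7 to T12 passed in 17 by DESeq2, 16 with RLE factors and 6 without the libraries of high NVE12898 score, a setting added after seeing the data. Levels at T13 to T17 passed in 1 by DESeq2, with RLE factors, with no filter and with a replicate block. The difference of LD from DD passed in 5 with no filter. Apart from the LD 12 h difference without high NVE12125 libraries, counts of called members under other settings, here and above, come without the share of all genes. A shift in members alone therefore cannot be told from a shift in all genes. The cause of these shifts was not tested. Leaving out 1 replicate gave 0 to 12 members for the LD 24 h component, 22 to 26 for the LD later minus earlier 12 h, 0 to 7 for its difference from DD, 1 to 11 and 0 to 1 for the levels at T7 to T12 and T13 to T17, and 0 in the DD tests. With the replicate letter as a block the other counts were 13, 29, 7 and 11 for the LD 24 h component, the LD 12 h difference, its difference from DD and the level at T7 to T12, and 0 in the DD tests. Over all genes, libraries of the same letter did not deviate together more than others (median correlation -0.002, against -0.003 between letters), and the labels tie no letters across time points. NVE2343 in DD was an exception, highest in replicate A at 13 of 17 time points. At a median total of 538017 counts, 1 read is worth 1.86 CPM, which limits the 26 members under 20 CPM most.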
